A study of Mus musculus with 6 samples.

Results

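The 10 genes described here belong to the acute phase response or restrain it. They were Serpina3n, Serpina3g, Serpina3f and Serpina3m of the Serpina3 protease inhibitors, the serum amyloid A genes Saa1, Saa2 and Saa3, the plasma protein genes Hp and Orm1, and the signaling inhibitor Socs3. They were taken by symbol from the deposited gene table and made up 10 of its 60832 rows. The genes were chosen with the difference between the groups already known, so their fold changes are given as a description and not as a test. They were selected on the CPM of the same 6 libraries and on the fold change between the groups.

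RNA-seq was performed on liver sinusoidal endothelial cells (LSECs), which line the sinusoids of the liver, isolated with anti-CD146 beads from mice carrying liver metastases (CRCLM) grown from HCT116 cells (a human line of colorectal cancer). Each group had 3 libraries, the sensitive one from xenografts that respond to bevacizumab and the resistant one from xenografts with acquired resistance to it. By the paper's methods the hosts were male BALB/c-Nu mice aged 4 to 6 weeks, which lack a thymus. The labels give no treatment of the mice. By the paper, vehicle mice received IgG, though it does not state that the sensitive LSECs came from these, and resistance was generated with bevacizumab, an antibody against human VEGF, at 10 mg/kg, for 42 days by the Results and 7 weeks by the Methods of the paper. In both groups the labels give 24 h of culture, and cells were kept in DMEM with fetal bovine serum. The labels number the libraries but do not say that each came from its own mouse, so the errors given here are the spread between these libraries, which may be technical.

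Acute phase proteins are plasma proteins whose synthesis rises during inflammation, mainly in hepatocytes. Interleukin 6 and related cytokines act through the receptor subunit gp130, Janus kinases and the transcription factor STAT3, while interleukin 1 and TNF act through NF-kB, and C/EBP factors act with both. SOCS3 is itself induced by STAT3, binds gp130 and its kinases, and ends the signal. The Serpina3 genes are the mouse counterparts of a single human gene for antichymotrypsin, and lie side by side on chromosome 12.

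The total count on genes was between 17599326 and 20726684 per library, so that 3 counts corresponded to between 0.136 and 0.195 CPM (read counts relative to TMM-adjusted totals). Sensitive replicate 2 stood apart, with a Pearson's r of log2 CPM across genes of 0.860 to 0.901 with the other libraries, against up to 0.974 for other pairs. Summed over 18 LSEC markers, CPM ran from 1803 to 2988 in the sensitive and from 1678 to 2406 in the resistant group, and over 18 macrophage and Kupffer cell markers from 25790 to 44340 and from 28570 to 33710. Of these 18 LSEC markers 18 passed the filter on low counts. Counts per library were 8143 to 15901 for Stab1 and 5890 to 24502 for Mrc1. They were much lower for Gpr182 (26 to 93), Clec4g (16 to 118), Rspo3 (6 to 19) and F8 (0 to 42). Mcam, which encodes CD146, the protein used for the isolation, had at most 79 counts. Of the 1909 CPM of LSEC markers in sensitive replicate 1, 496 were of Stab1 and 663 of Mrc1. By FPKM, the macrophage and Kupffer cell markers Marco and Cd5l held places 4 to 12 and 8 to 13 among all genes. Itgam of that list held places 833 to 2524, and Mrc1 206 to 1032. The part of macrophage and Kupffer cell RNA in the members' values was not tested.

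All 10 members passed the filter on low counts, and so did 15474 of all rows. In the quasi-likelihood test of edgeR, 0 of the 10 passed the adjusted threshold of 0.05, as did 0% of all genes tested. Unadjusted p-values under 0.05 were found for 2 members, Serpina3n and Hp, both lower in the resistant group, where 2.54% of all genes were lower and 0.536% higher at this threshold (3.08% in all). For 1 member, Serpina3n, every resistant library was below every sensitive one, as for 4.38% of all genes, and for 0 members every resistant library was above, as for 4.64%. The log2 fold change, resistant against sensitive, was below 0 for 9 of the 10, as for 49.2% of all genes, and its median was -1.35 over the members and 0.01 over all genes tested. Since the members were taken with this contrast known, nothing is read from these counts. With DESeq2's Wald test 1 member, Serpina3n, had an adjusted p-value under 0.05, as did 24 genes or 0.155% of all, and 4 members had an unadjusted one, as did 4.73% of all genes.

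Per unit of length, the most abundant members were Hp, with a mean of 306 FPKM over the 6 libraries, and Saa3, with 137 FPKM. They were followed by Socs3 at 22.5, Serpina3n at 19.2, Orm1 at 8.73, Serpina3g at 4.02, Serpina3f at 1.34, Serpina3m at 0.947, Saa1 at 0.845 and Saa2 at 0.343 FPKM. The ranges of FPKM over the libraries overlapped for each of the 9 pairs of neighbors in this order. In the library where each was highest, Hp held place 39 and Saa3 place 114 among all genes by FPKM. In the library where each was lowest, they held places 1250 and 3309.

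**Figure D1:**
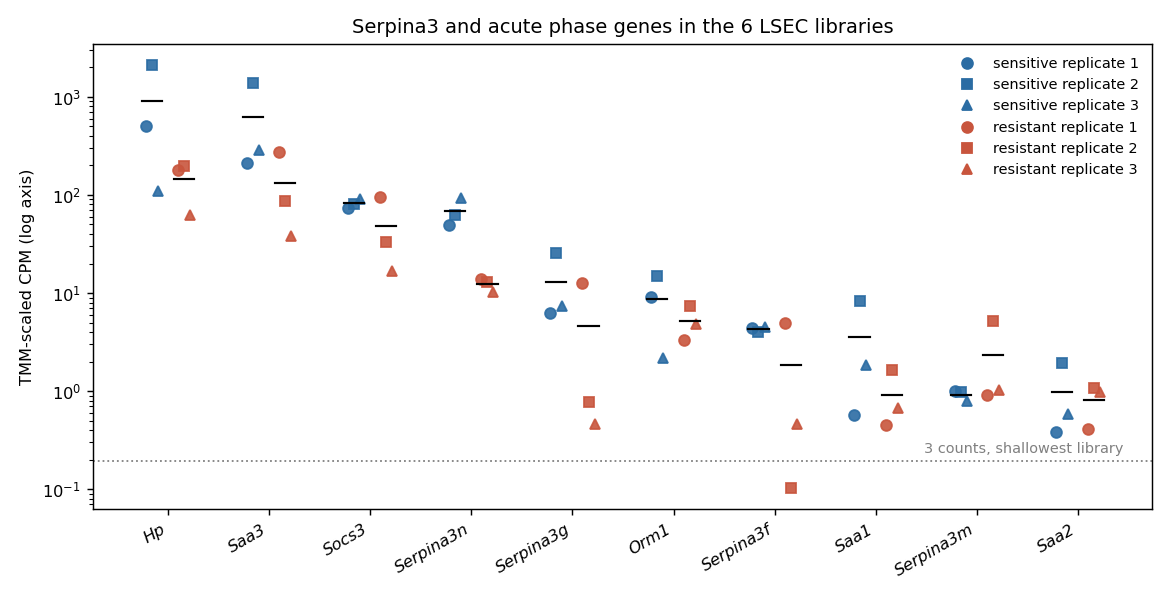
CPM after TMM scaling (log axis) of the 10 members in the 6 libraries, with blue symbols for LSECs from sensitive and red for those from resistant xenografts, a shape for each replicate number, and bars at the group means. Serpina3n is the gene whose groups lie apart, and the red circle of resistant replicate 1 lies with the blue symbols for Socs3, Serpina3g, Serpina3f and Saa3. The dotted line is 3 counts in the shallowest library, 0.195 CPM.

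Serpina3n encodes a secreted inhibitor of serine proteases such as granzyme B and neutrophil elastase. Its span on GRCm38 is chromosome 12, 104406729 to 104414329, on the plus strand. It had 49.8, 62.1 and 92.7 CPM in sensitive replicates 1, 2 and 3 and 13.8, 13.1 and 10.3 CPM in resistant replicates 1, 2 and 3. Every resistant library was thus below every sensitive one, with 201 to 305 counts against 957 to 1894. The mean was 68.2 ± 22.1 CPM (SD, n = 3) in the sensitive and 12.4 ± 1.86 CPM (SD, n = 3) in the resistant group, 5.50-fold lower in the latter. This was a log2 fold change of -2.46 (SE 0.295), which ran from -2.64 to -2.16 over the fits that each omitted a library. The coefficient of variation was 32.4% in the sensitive and 15.0% in the resistant group. In bulk RNA, fewer cells that express a gene and less RNA of it per cell cannot be told apart, here and for the genes that follow.

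Serpina3g encodes an intracellular inhibitor of lysosomal cysteine cathepsins (chromosome 12, 104236245 to 104241939, plus strand). Its CPM was 6.27, 25.4 and 7.29 in sensitive replicates 1, 2 and 3 and 12.6, 0.771 and 0.461 in resistant replicates 1, 2 and 3. Resistant replicate 1 thus lay within the sensitive range, while the other two were below every sensitive library. The counts behind these were 278 in resistant replicate 1 (95% exact Poisson interval 246 to 313), 15 in replicate 2 (8.40 to 24.7) and 9 in replicate 3 (4.12 to 17.1), where the intervals cover counting error only. The group means were 13.0 ± 10.8 and 4.61 ± 6.92 CPM (SD, n = 3 each). On the log2 scale the change of -1.48 (SE 1.22) was -4.37 without resistant replicate 1 and -0.56 without sensitive replicate 2.

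Serpina3f, a close paralog next to Serpina3g (104214544 to 104221129, plus strand), was likewise high in resistant replicate 1 and low in the other resistant libraries. In sensitive replicates 1, 2 and 3 it was read at 4.45, 3.96 and 4.45 CPM, the smallest relative spread of any member in a group (coefficient of variation 6.64%). In resistant replicates 1, 2 and 3 it was at 4.94, 0.103 and 0.461 CPM. Resistant replicate 1 was the highest of all 6, and replicates 2 and 3 held 2 and 9 counts against 61 to 109 elsewhere. The 2 counts are under the limit of 3, with a 95% exact Poisson interval of 0.242 to 7.23 counts. Its log2 change of -1.22 (SE 1.12) was -3.89 without resistant replicate 1 and -0.65 without resistant replicate 2.

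Serpina3m was the member with a log2 fold change above 0. It had 1.00, 0.973 and 0.783 CPM in sensitive replicates 1, 2 and 3 and 0.906, 5.14 and 1.02 CPM in resistant replicates 1, 2 and 3. Resistant replicate 2, with 100 counts, was thus set apart from the other libraries, which had 15 to 21 counts. The log2 fold change of 1.35 (SE 0.779) fell to 0.08 without that library. The same library was highest for Serpina3k, the kallikrein-binding inhibitor of hepatocytes, with 67.1 CPM against 3.18 to 17.7 CPM in the others. The annotated span of Serpina3m (104338486 to 104394257) covers that of Serpina3k on the same strand over 7659 bases, and 6.09% of the 100-base windows of its transcripts also occur in Serpina3k transcripts. Reads of Serpina3m and Serpina3k could therefore not be kept apart with certainty. The CPM of 20 hepatocyte markers was also highest in that library, summing to 513 against 325 and 371 in the other resistant and 230 to 385 in the sensitive libraries. Trf made up much of the sum, with 140.5, 262 and 291 CPM in the sensitive and 252, 300 and 261 CPM in the resistant libraries. Alb ran otherwise, with 56.3, 68.5 and 18.1 CPM and 38.3, 88.35 and 65.3 CPM, lowest in sensitive replicate 3. Of 16 hepatocyte markers tested, 15 had a log2 fold change above 0, where 49.2% of all genes were below 0. At an unadjusted p-value under 0.05 (edgeR) 3 were higher, beside 0.536% of all genes. Alb, which encodes albumin, had 370 to 1720 counts per library, and Cyp2e1 4 to 106, and 0 of the 20 markers were at 0 counts throughout. The part of these markers in the Serpina3m values was not tested.

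The other Serpina3 genes of the cluster were read beside these members. Of 7 further cluster genes, Serpina3a, Serpina3b and Serpina3j had 0 counts in the 6 libraries, which allows up to 0.136 to 0.195 CPM, and Serpina3c had at most 6 counts. Serpina3h, annotated as a transcribed pseudogene, was at 12.2, 10.3 and 10.0 CPM in the sensitive and 11.7, 4.06 and 11.4 CPM in the resistant libraries. For Serpina3i the values were 1.63, 1.10 and 2.10 CPM and 1.95, 0.360 and 2.36 CPM. Resistant replicate 2 was low for both, and resistant replicate 3, low for Serpina3g and Serpina3f, was not. Of the 3 genes tested, 0 had an unadjusted p-value under 0.05, and their median log2 fold change was -0.05. Between 0.204% (Serpina3n) and 6.09% (Serpina3m) of the 100-base transcript windows of the Serpina3 members occur in another gene, with Serpina3h and Serpina3i among these for Serpina3g (3.49% in all) and Serpina3f (3.40%).

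**Figure D2:**
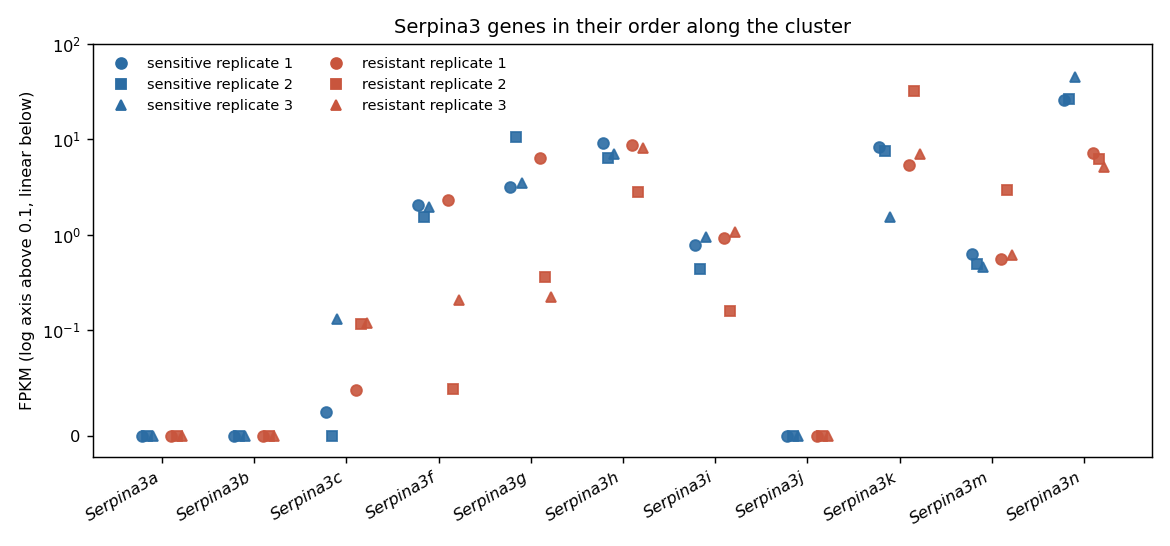
FPKM (log axis above 0.1, linear below) of the 11 Serpina3 genes in their order along chromosome 12, by library, with blue for sensitive and red for resistant. Serpina3n, at the right, has all red symbols below all blue ones, and Serpina3f and Serpina3g have 2 red symbols below the others while Serpina3h and Serpina3i have no such pair.

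As a share of the summed FPKM of these 11 genes, Serpina3n made up 51.6%, 49.5% and 74.4% in sensitive replicates 1, 2 and 3 and 22.8%, 14.0% and 22.7% in resistant replicates 1, 2 and 3. The sum itself was 49.8, 53.2 and 60.0 FPKM in the sensitive and 31.3, 44.8 and 22.3 FPKM in the resistant libraries. Serpina3n was the most abundant Serpina3 gene in each sensitive library. Serpina3k led in resistant replicate 2 with 71.7% and Serpina3h in resistant replicates 1 and 3 with 27.7% and 36.2%.

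Promoter sequence of the Serpina3 members is shown because Serpina3g and Serpina3f shared a pattern over the resistant libraries that Serpina3n did not have. Promoters were taken from RefSeq (GRCm38.p6) and held 8 windows for 7 members, with 2 for Serpina3f, and none for Serpina3m, Hp and Orm1. They were searched on both strands for a STAT motif (TTCNNNGAA), a C/EBP motif (TTGCNNAA), an interferon regulatory factor motif (GAAA repeated after 2 free bases) and the NF-kB motif. No match overlapped another. Of 32851 windows of 300 bases, 8.3% held the STAT, 10.8% the C/EBP, 3.44% the interferon regulatory factor and 4.51% the NF-kB motif. Below are the 250 bases before the start site of Serpina3g, Serpina3f (the more upstream of its windows) and Serpina3n, 5′ to 3′, with matches in capitals.
Serpina3g (chr12:104235897-104236146, plus strand): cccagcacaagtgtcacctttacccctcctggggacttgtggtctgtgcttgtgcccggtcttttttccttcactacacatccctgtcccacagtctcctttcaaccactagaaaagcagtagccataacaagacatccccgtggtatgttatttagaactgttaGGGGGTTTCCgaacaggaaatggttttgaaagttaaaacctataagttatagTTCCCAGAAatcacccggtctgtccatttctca
Serpina3f (chr12:104214294-104214543, plus strand): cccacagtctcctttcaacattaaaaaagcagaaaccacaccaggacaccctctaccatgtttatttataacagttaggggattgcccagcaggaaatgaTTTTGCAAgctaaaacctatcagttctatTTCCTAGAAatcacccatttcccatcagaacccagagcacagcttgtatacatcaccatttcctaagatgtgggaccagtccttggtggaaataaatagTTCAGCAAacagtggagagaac
Serpina3n (chr12:104406458-104406707, plus strand): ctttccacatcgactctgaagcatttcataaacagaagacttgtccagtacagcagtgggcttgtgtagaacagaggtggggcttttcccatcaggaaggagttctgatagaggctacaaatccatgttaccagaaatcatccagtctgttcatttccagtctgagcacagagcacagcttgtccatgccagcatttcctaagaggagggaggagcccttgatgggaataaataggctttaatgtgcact

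In Serpina3g the STAT match began 33 bases before the start site and the NF-kB match 85 bases before it. In Serpina3f the STAT match began 121 bases and the C/EBP matches 150 and 22 bases before it. The Serpina3n window held none of the 4 motifs. Local alignment of the windows gave 81% identity over 147 columns between Serpina3g and Serpina3f, 70.4% over 98 columns between Serpina3g and Serpina3n, and 74.3% over 105 columns between Serpina3f and Serpina3n. The Serpina3g element TTCCCAGAA aligned with TTCCTAGAA in Serpina3f, a C5T difference that keeps the motif. In Serpina3n it aligned with TTACCAGAA, a C3A difference at a fixed base of the motif, with positions counted from 1 at the 5′ end of the 9-base element. A match is a description of the letters and not of a bound site, and the lack of a match in Serpina3n says nothing about the factor.

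Saa3, the serum amyloid A gene that macrophages and other cells outside the liver parenchyma express, was the most abundant of its family (chromosome 7, 46711998 to 46715700, minus strand). It had 213, 1387 and 288.5 CPM in sensitive replicates 1, 2 and 3 and 277, 86.1 and 38.3 CPM in resistant replicates 1, 2 and 3. Resistant replicate 1 lay between the sensitive libraries and the other resistant libraries lay below all of them. The group means were 629.6 ± 657 and 134 ± 126.5 CPM (SD, n = 3 each). A log2 fold change of -2.23 (SE 0.953) was -3.33 without resistant replicate 1 and -0.91 without sensitive replicate 2, the library with 21370 of its counts.

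Saa1 and Saa2 encode the serum amyloid A proteins that hepatocytes release in the acute phase. Saa1 had 0.574, 8.37 and 1.86 CPM in sensitive replicates 1, 2 and 3 and 0.453, 1.64 and 0.666 CPM in resistant replicates 1, 2 and 3, from 10 to 129 counts. Saa2 had 0.383, 1.95 and 0.587 CPM and 0.408, 1.08 and 0.974 CPM, from 8 to 30 counts. Both were highest in sensitive replicate 2, and the groups overlapped for both. For Saa1 a log2 fold change of -1.96 (SE 1.02) was -0.41 without sensitive replicate 2. For Saa2 it was -0.23 (SE 0.796) and turned to 0.74 without sensitive replicate 2, to 0.10 without resistant replicate 1 and to 0.05 with limma-voom, so no direction is given for it. Saa1 and Saa2 shared 8.96% and 8.63% of their 100-base transcript windows with each other, and the split of reads between them is uncertain.

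The promoter of Saa3 is shown because its level was set apart from that of Saa1 and Saa2 in every library, with 14.9 to 465.9 FPKM against at most 2.96 FPKM. The capitals mark an interferon regulatory factor match, 125 bases before the start site, and a C/EBP match, 99 bases before it.
Saa3 (chr7:46715677-46715926, minus strand): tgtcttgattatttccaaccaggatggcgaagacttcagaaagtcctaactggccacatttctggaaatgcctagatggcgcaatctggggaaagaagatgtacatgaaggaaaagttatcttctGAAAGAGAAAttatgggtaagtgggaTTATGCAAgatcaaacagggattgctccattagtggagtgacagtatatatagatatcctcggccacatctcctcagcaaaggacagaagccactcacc
Saa1 and Saa2 each held a C/EBP match, 182 and 183 bases before the start site, and no match of the other 3 motifs. Their windows were 95.6% identical over 248 columns.

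Hp encodes haptoglobin, the plasma protein that binds free hemoglobin, and is expressed by hepatocytes and by developing neutrophils (chromosome 8, 109575128 to 109579172, minus strand). Its level was 511, 2110 and 109 CPM in sensitive replicates 1, 2 and 3 and 178, 198 and 63.2 CPM in resistant replicates 1, 2 and 3. Sensitive replicates 1 and 2 were above all resistant libraries, and sensitive replicate 3 was below 2 of them. The group means were 910.1 ± 1058 and 146 ± 72.7 CPM (SD, n = 3 each). Its change of -2.64 on the log2 scale (SE 1.005) was -1.10 without sensitive replicate 2 and -3.15 without sensitive replicate 3.

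Neutrophil markers followed a like course over the libraries. The CPM of 12 such genes summed to 5024, 7995 and 652.5 in sensitive replicates 1, 2 and 3 and to 2031, 1588 and 334 in resistant replicates 1, 2 and 3. For Hp and for this sum alike, sensitive replicates 2 and 1 were highest and resistant replicate 3 lowest. Not every marker had this order. Mmp8 and Cxcr2 were highest in sensitive replicate 1, and Retnlg and Ltf were lowest in sensitive replicate 3. Camp and Ltf were higher in resistant replicate 1 than in sensitive replicate 1. All 12 markers were tested and had a log2 fold change below 0, as did 49.2% of all genes. Retnlg and Csf3r had an unadjusted p-value under 0.05 (edgeR), where 2.54% of all genes were lower at this threshold. Of the 12, 0 were at 0 counts. S100a8 ranged from 916 to 32108 and Ly6g from 5 to 250 counts per library. The part of neutrophil RNA in the Hp values was not tested.

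Orm1 encodes orosomucoid, a plasma protein that binds drugs and lipids (chromosome 4, 63344560 to 63348163, plus strand). Its CPM was 9.19, 14.9 and 2.15 in sensitive replicates 1, 2 and 3 and 3.35, 7.29 and 4.82 in resistant replicates 1, 2 and 3. Sensitive replicate 3 was the lowest and sensitive replicate 2 the highest of the 6, so the sensitive group enclosed the resistant one. The log2 fold change was -0.76 (SE 0.671), and -0.15 without sensitive replicate 2. Orm1 shared 6.95% of its 100-base windows with Orm2, whose values of 5.79, 7.33 and 0.441 CPM in the sensitive and 2.31, 2.36 and 1.33 CPM in the resistant libraries had the same highest and lowest library.

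Socs3 encodes the inhibitor of cytokine signaling that STAT3 induces (chromosome 11, 117966079 to 117970047, minus strand). It had 74.2, 80.7 and 91.4 CPM in sensitive replicates 1, 2 and 3 and 94.6, 32.8 and 17.0 CPM in resistant replicates 1, 2 and 3. Resistant replicate 1 was the highest of the 6 libraries and the other resistant libraries were the lowest. The coefficient of variation was 10.6% in the sensitive and 85.2% in the resistant group. On the log2 scale a change of -0.77 (SE 0.573) was -1.71 without resistant replicate 1 and -0.36 without resistant replicate 3. The Socs3 promoter window held 1 match, the STAT sequence ttcttagaa 154 bases before the start site.

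**Figure D3:**
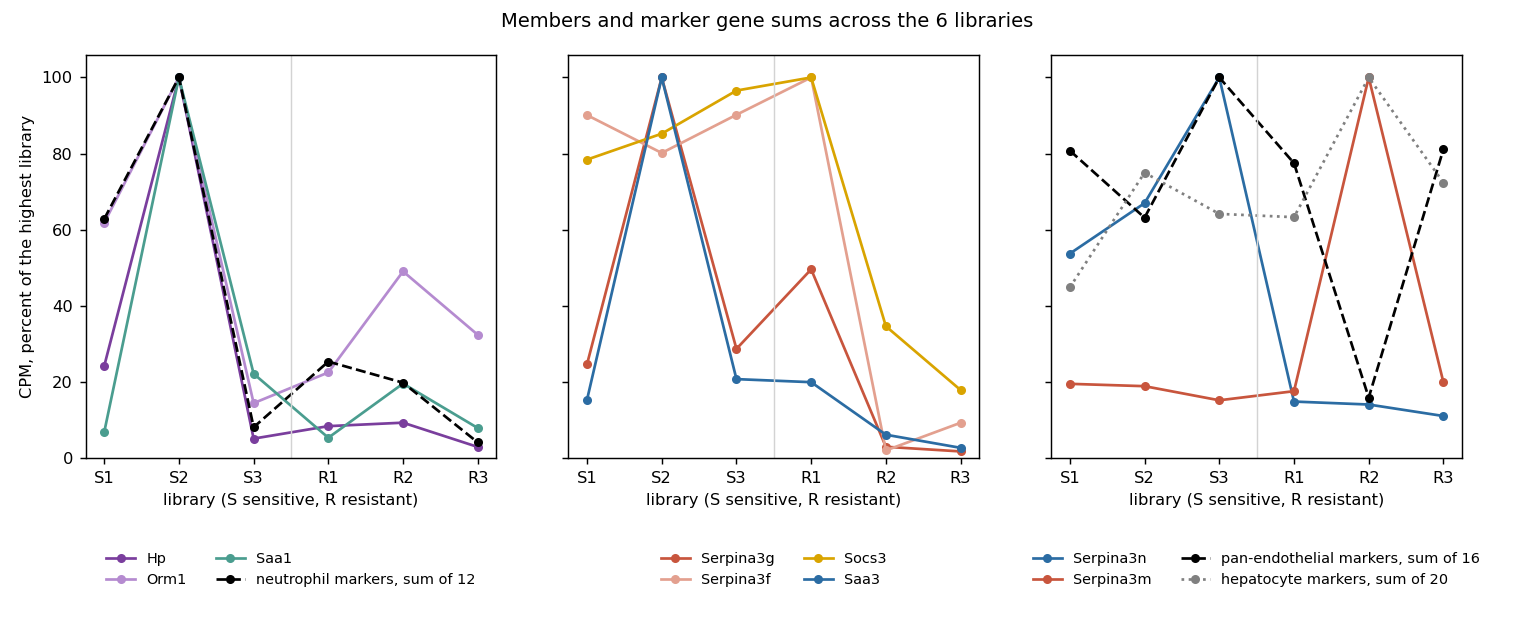
CPM of 9 members and of marker sums, each as a percent of its highest library, in sensitive (S) and resistant (R) replicates 1 to 3, where lines only join the points of a gene and carry no order. Hp and the neutrophil sum (left) peak in S2, Serpina3g, Serpina3f, Socs3 and Saa3 (middle) are lower in R2 and R3 than in R1, and Serpina3n (right) is low in R1, R2 and R3 alike while Serpina3m and the hepatocyte sum peak in R2. Trf makes up much of the hepatocyte sum.

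Serpina3g, Serpina3f, Saa3 and Socs3 therefore had in common that resistant replicates 2 and 3 were below the lowest sensitive library while resistant replicate 1 was not. Over the 6 libraries, Pearson's r of log2 CPM for the 6 pairs of these genes was 0.945 (Serpina3g and Saa3), 0.922 (Serpina3g and Socs3), 0.887 (Serpina3g and Serpina3f), 0.853 (Serpina3f and Socs3), 0.823 (Saa3 and Socs3) and 0.720 (Serpina3f and Saa3). Other pairs of members reached values like the lower of these, with 0.821 for Saa1 and Saa2, 0.818 for Hp and Saa3, 0.810 for Hp and Orm1 and 0.707 for Serpina3n and Saa3. Only the pair of Serpina3f and Saa3 was below some of these, so r did not fully set these genes apart. Without sensitive replicate 2, r was 0.831 to 0.999 for the 6 pairs and at most 0.676 (Serpina3n and Saa3) for other pairs. The genes were grouped by these same values. Spearman's rho was 0.543 for Serpina3f and Saa3 and 0.886 for Serpina3n and Saa3. These values share libraries and groups and are a description.

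Single libraries set how many members had an unadjusted p-value under 0.05, 2 of 10 with all 6 libraries. Without resistant replicate 1 there were 5, beside 3.91% of all genes in that fit. Without sensitive replicate 1 or 3 there were 4, beside 3.76% and 6.53%. Without sensitive replicate 2, resistant replicate 2 or resistant replicate 3 there was 1, beside 3.96%, 1.51% and 1.03%.

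Pan-endothelial markers also differed between the libraries. The CPM of 16 such genes summed to 446.6, 349 and 553 in sensitive replicates 1, 2 and 3 and to 428, 88.2 and 449 in resistant replicates 1, 2 and 3. The log2 fold change was below 0 for 15 of the 16, as for 49.2% of all genes. At an unadjusted p-value under 0.05 (edgeR) 6 were lower, beside 2.54% of all genes. Groups did not overlap for 7, all lower, beside 4.38% of all genes. Of the 16, 0 were at 0 counts in the libraries. Cdh5 made up much of the sum, with 183, 48.0 and 220 CPM in the sensitive and 203, 18.3 and 230 CPM in the resistant libraries. Tek, by contrast, had 15.1, 15.3 and 13.3 CPM against 6.12, 1.03 and 4.26 CPM, low in every resistant library, as Serpina3n was. The part of these markers in the members' values was not tested.

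**Figure D4:**
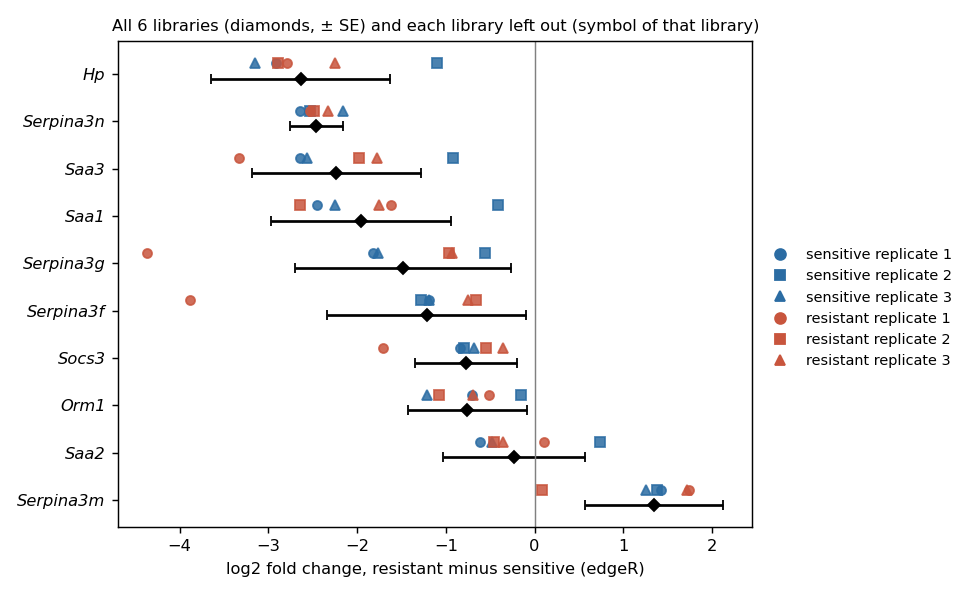
Log2 fold change of each member, resistant against sensitive, from edgeR with all 6 libraries (black diamonds, ± SE) and with 1 library omitted at a time (symbol of the library left out). The values of Serpina3n stay between -2.64 and -2.16, those of Serpina3g and Serpina3f move furthest without resistant replicate 1, and those of Hp, Saa1 and Saa3 move nearest to 0 without sensitive replicate 2.

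Around the members, genes of the pathway were read from lists chosen with earlier results of these data known. Of 108 such genes tested with edgeR, 0 passed the adjusted threshold and 8 had an unadjusted p-value under 0.05, beside 3.08% of all genes. The number ran from 1 without resistant replicate 3 (1.03% of all genes in that fit) to 15 without sensitive replicate 3 (6.53%). Among 30 other acute phase genes, 27 were tested, 14 with a log2 fold change above and 13 below 0, and the median was 0.35 against 0.01 over all genes. Unadjusted p-values under 0.05 were found for 2 lower and 2 higher genes of the 27, beside 2.54% lower and 0.536% higher of all genes. Steap4, a metalloreductase, was lower, with 10.2, 3.12 and 4.16 CPM in the sensitive and 2.17, 0.514 and 1.49 CPM in the resistant libraries and a log2 fold change of -2.06. Lrg1, a glycoprotein of neutrophils and hepatocytes, was lower at -2.77, with 99.5, 356 and 9.74 CPM against 31.7, 29.6 and 6.92 CPM, and its groups overlapped. The lipopolysaccharide receptor gene Cd14 was higher at 0.69, with 110, 135 and 80.8 CPM against 214, 145 and 164 CPM. Fga, a fibrinogen chain of hepatocytes, was higher at 1.63, with 6.03, 3.18 and 4.21 CPM against 6.12, 28.8 and 6.66 CPM. Its groups did not overlap, though resistant replicate 2 lay far above the rest. By FPKM the metallothionein Mt1 led the list with a mean of 291, followed by Lcn2, a siderophore-binding protein of neutrophils, with 143. Lcn2 had 765, 961 and 50.8 CPM in the sensitive and 291, 199.5 and 37.9 CPM in the resistant libraries, highest and lowest in the same libraries as Hp.

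Of 11 cytokines that induce these genes, 8 were tested and 0 passed the adjusted threshold, 4 above and 4 below 0, with a median of -0.20. Il6, the main inducer in hepatocytes, had 7 to 43 counts per library. Tnf had a log2 fold change of -1.04 and an unadjusted p-value of 0.045, the only such ligand, with 9.76, 12.5 and 5.24 CPM in the sensitive and 5.98, 3.29 and 4.05 CPM in the resistant libraries. Il1a was the most abundant ligand, with a mean of 27.1 FPKM. Il10, which signals through STAT3, had 9.76, 8.44 and 6.17 CPM and 5.75, 2.06 and 0.461 CPM, so its groups did not overlap. It was named once its values were known.

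Receptors and kinases were spread evenly, with 8 of 16 above and 8 below 0, a median of -0.01 and 0 at an unadjusted p-value under 0.05. The interleukin 6 receptor gene Il6ra had 148, 145 and 145 CPM in the sensitive and 183, 92.2 and 113 CPM in the resistant libraries, and Il6st, which encodes gp130, ranged from 151 to 235 CPM. Tnfrsf1a was the most abundant, with a mean of 94.3 FPKM, followed by Tnfrsf1b (83.6) and the decoy receptor gene Il1r2 (42.8). Il1r2 had 165, 213 and 17.8 CPM against 56.3, 42.1 and 8.77 CPM, again in the order of libraries seen for Lcn2.

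Of 12 transcription factor genes 11 were tested, 8 above and 3 below 0, with a median of 0.07. Stat3 had 222, 138 and 190 CPM in the sensitive and 214, 174 and 157 CPM in the resistant libraries (log2 fold change -0.01). Hnf4a, a hepatocyte factor that is also in the hepatocyte marker list, was higher at 2.77 with an unadjusted p-value of 0.0495, from 0 to 47 counts. Cebpb led by FPKM with a mean of 349.5, followed by Cebpa (125.5) and Rela (38.9).

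Of 12 other inhibitors of cytokine signaling, 7 were above and 5 below 0, with a median of 0.10 and 0 at an unadjusted p-value under 0.05. The NF-kB inhibitor gene Nfkbia was the most abundant with a mean of 208 FPKM, followed by Ptpn6 with 86.1. Socs1 and Socs2, relatives of Socs3, had log2 fold changes of -0.45 and 0.15. Socs2 had 34.0, 20.6 and 42.5 CPM in the sensitive and 69.7, 18.5 and 19.5 CPM in the resistant libraries, highest in resistant replicate 1, as Socs3 was. Among 14 STAT3 and NF-kB target genes, 6 were above and 8 below 0, with a median of -0.10, and 1, the interleukin 4 receptor gene Il4ra, had an unadjusted p-value under 0.05 (0.035, log2 fold change -0.70). Il4ra was at 245, 306 and 248 CPM in the sensitive and 220, 150 and 121 CPM in the resistant libraries, so its groups did not overlap. Mcl1 was the most abundant target, with a mean of 213.5 FPKM, followed by Ccl2 (129) and Tnfaip2 (85.5).

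Proteases that Serpina3 proteins can bind gave 2 of 8 tested genes above and 6 below 0, with a median of -0.66 and 0 at an unadjusted p-value under 0.05. The lysosomal cathepsins were the most abundant by FPKM, with means of 2639 for Ctsb, 1724 for Ctss and 497 for Ctsl, and log2 fold changes of 0.04, -0.29 and 0.40. Among the granule proteases, Elane, which is also in the neutrophil list, had 19.2, 26.2 and 2.69 CPM in the sensitive and 8.74, 1.39 and 0.308 CPM in the resistant libraries. Gzmb, which encodes granzyme B, had at most 24 counts, and Cma1 at most 1. Of 9 receptors of acute phase proteins, 6 were above and 3 below 0, with a median of 0.40 and 0 at an unadjusted p-value under 0.05. Cd163, the receptor for haptoglobin bound to hemoglobin, was the most abundant with a mean of 228 FPKM. It had 575, 375 and 2251 CPM in the sensitive and 1529, 1425 and 1251 CPM in the resistant libraries, and was lowest in sensitive replicate 2, where Hp was highest. The low value there was not particular to Cd163. Of the macrophage markers, Adgre1, Csf1r, Cd68, Vsig4 and Mertk were also lowest in that library, while Clec4f, Marco and Cd5l were highest there. Among these receptors, Cd36 and Lrp1 followed Cd163 with means of 108 and 102 FPKM.

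**Figure D5:**
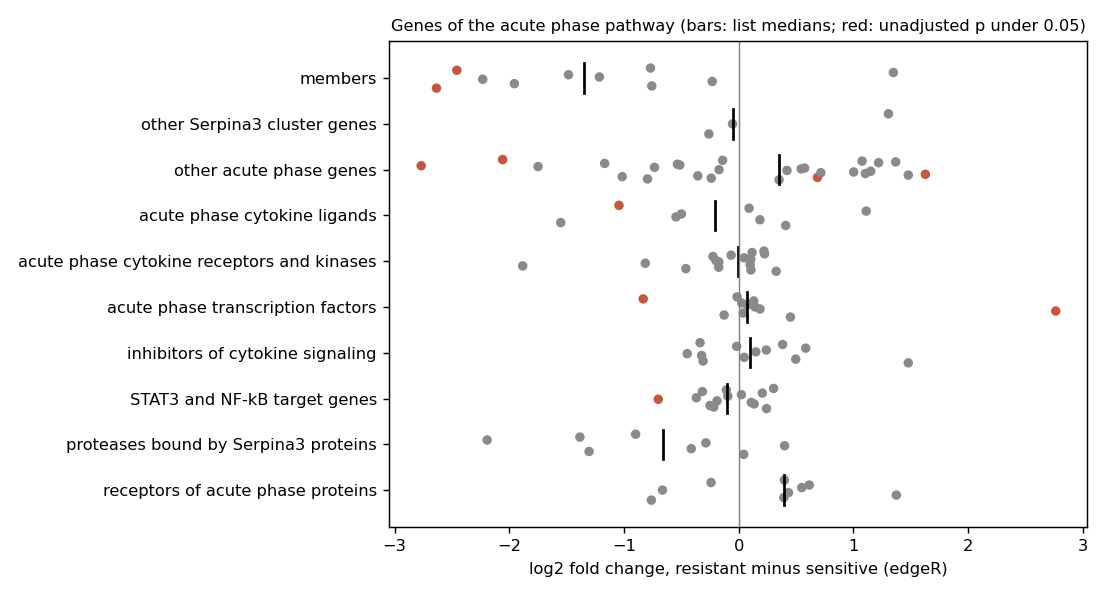
Log2 fold change, resistant against sensitive, of each tested gene of the members and of 9 lists of the pathway, with black bars at the list medians and red for an unadjusted p-value under 0.05. The members have a median of -1.35, and the medians of the other lists lie between -0.66 and 0.40. The members were chosen with this contrast known, so nothing is read from that difference.

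The genes whose log2 CPM ran most like that of Serpina3n over the 6 libraries, among 12011 genes with a mean log2 CPM of at least 1, were Lypla1 (Pearson's r 0.991), Elac1 (0.985), Bcl2 (0.970), Kcna2 (0.970) and Thoc7 (0.969). The measure takes no account of size. Lypla1 had a log2 fold change of -0.17 and Kcna2, a potassium channel gene, one of -1.91, with 58.7, 83.6 and 161 CPM in the sensitive and 33.3, 25.7 and 22.1 CPM in the resistant libraries. For Socs3 they were Cd207 (0.992), Lap3 (0.991), Nrg2 (0.991), Tapbpl (0.989) and Fgd2 (0.984). Fgd2 had 54.6, 69.6 and 61.3 CPM against 74.2, 34.5 and 22.9 CPM, with resistant replicate 1 the highest library, as for Socs3.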

How the data were processed

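RNA of 6 libraries of mouse LSECs was analysed. Per the labels the libraries were made from ribosomal RNA-depleted RNA with the NEBNext Ultra II kit, and the paper's methods also name poly(A) selection. The authors aligned reads with HISAT2 2.0.5 and deposited the counts of featureCounts 1.5.0-p3 as whole numbers without normalization, with mm9 named in the processing notes and the annotation and strand setting not given in the sources used here. The authors also deposited FPKM values. A deposited table of group means, log2 fold changes and p-values of the authors' own comparison was not used. Coordinates are of GRCm38 (GENCODE M21), matched by Ensembl identifier for 52083 of 60832 rows.

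Groups and replicate numbers came from the sample titles. The design text of the deposited record speaks of LX-2 cells in conditioned media instead, which does not match the titles, source or organism of these libraries. Genes were kept by filterByExpr (15474), scaled by TMM and compared with the two-sided quasi-likelihood test with robust moderation of edgeR 4.0.16 in R 4.3.3, with no covariate, Benjamini-Hochberg adjustment over all genes tested and a threshold of 0.05. SEs are those implied by the F statistic. CPM were counts scaled to a common total with TMM factors, and log2 CPM used a prior count of 2. Reads carried no molecular identifiers, so counting intervals are lower limits on the error. No pair of libraries within a group agreed within sampling noise (chi-square per gene of 36.7 or more). Motifs were matched to RefSeq promoters and windows were aligned with Biopython 1.88.

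The members and the gene lists were chosen with earlier results of these data known. Named were the members, and from each list genes with an unadjusted p-value under 0.05 (at most 4), up to 3 genes with the highest mean FPKM, those with 0 counts, and the 5 genes most like Serpina3n and Socs3. Other named genes, among them those given for their role or beside a member, were picked after their values were seen. A gene that this rule names is not reported here. Alternatives were DESeq2 1.42.0, other size factors, library totals alone, no filter, at least 10 counts in every library, limma 3.58.1 on log2(FPKM + 1), limma-voom, a block for the replicate number, and the omission of each library. Figures were drawn with matplotlib 3.10.9.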

Additional observations from a re-analysis of the deposited data

How the results depend on the processing

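The number of members with an adjusted p-value under 0.05 was 0 and became 1 (Serpina3n) with DESeq2's Wald test and with no filter on low counts. Over all genes it was 0 and became 24 with DESeq2 and 2 with no filter. For members, other pathway genes and all genes it ranged from 0 to 0 over the fits that each omitted 1 library, and was 0 under the other alternatives. Unadjusted p-values under 0.05 were found for 476 genes, for 732 with DESeq2 and for 2036 with no filter, and with a library omitted for 167 (without resistant replicate 3) to 1056 (without sensitive replicate 3). The adjusted p-value of Serpina3n was 1.65e-09 with DESeq2, 0.00686 with edgeR and no filter, and 0.355 to 1.00 under the other alternatives. Among the fold changes of the members, 132 values under the alternatives were counted as having the direction and the side of the threshold given in the report. Of the rest, 2 passed the threshold and 3 had the other direction. The 3 were of Saa2, at 0.053 on the log2 scale with limma-voom, 0.74 without sensitive replicate 2 and 0.10 without resistant replicate 1 (from -0.61 to 0.74 over the 6 fits that left out a library). The cause was not tested. With at least 10 counts required in every library, Serpina3g, Serpina3f and Saa2 were not in the fit and gave no value. With DESeq2, Serpina3g had a log2 fold change of -1.52 but no p-value. That value is among the 132 for its direction only.

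The labels do not say whether same-numbered libraries were paired. Their deviations from the group means correlated at -0.00093, 0.0343 and 0.194, which cannot show whether they shared a batch. With a replicate block in the fit, 0 members, 0 other pathway genes and 0 of all genes had an adjusted p-value under 0.05, with 2, 11 and 467 at an unadjusted one, and the log2 fold change of Serpina3n was -2.42 (SE 0.339, adjusted p = 0.869 from edgeR).

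In CPM in place of FPKM, Orm1 and Serpina3g, and Serpina3m and Saa1, changed places in the order of levels. With a prior count of 0.5 in place of 2, the mean log2 CPM of Serpina3f moved from 0.94 to 0.77 and that of the other members by less. Depth was limiting for Serpina3m, Saa1 and Saa2, with 8 to 129 counts in a library, and for Serpina3g and Serpina3f in resistant replicates 2 and 3.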

Other observations

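Among genes named after their values were seen, those whose log2 CPM ran most like that of Hp over the 6 libraries were led by Isg15, an interferon-induced ubiquitin-like protein (Pearson's r 0.998, across 6 libraries that share groups and depth). Isg15 had 44.4, 119 and 12.6 CPM in sensitive replicates 1, 2 and 3 and 16.5, 20.1 and 7.33 CPM in resistant replicates 1, 2 and 3, so the order of all 6 libraries was that of Hp. For Saa3 they were led by Apobec3 (0.995) and included Psmb9 (0.988) and Psmb8 (0.983), which encode subunits of the immunoproteasome. Psmb8 had 135, 421 and 148 CPM in the sensitive and 143, 89.1 and 67.7 CPM in the resistant libraries, and Saa3 was likewise highest in sensitive replicate 2 and lowest in resistant replicate 3. For Serpina3g they were led by Lrmp (0.994), and included the thymic protease gene Prss16 (0.985), with 17.1, 31.9 and 12.0 CPM in the sensitive and 17.4, 3.96 and 2.51 CPM in the resistant libraries. The rest of the 5 highest were Rbm18, Pxylp1, Fcho1 and 1700017B05Rik (0.993 to 0.994) for Hp, and Mfsd7a (0.985) and Hypk (0.983) for Saa3. For Serpina3g they were Mag (0.993), Ddx59 (0.989) and Ly6m (0.987). All were picked as the highest among 12011 genes over 6 libraries, so no theme is read from them.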
